A study of Mus musculus with 20 samples.

Results

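9 genes were followed through 20 libraries: the endocytic receptor and adaptor genes Cubn, Amn, Lrp2 and Dab2, the genes of proteins secreted by extraembryonic endoderm Ttr, Apoe, Srgn and Fst, and Cited1. They were chosen by name, as genes of the cubilin, amnionless, megalin and Dab2 uptake system or of extraembryonic endoderm. Earlier results of these data were known when the 9 genes and all lists below were chosen. Their counts and medians set beside all genes are therefore descriptions and not tests. All 9 of 9 were matched by mouse symbol among the 30265 Ensembl genes of each count table. Cited1 encodes a nuclear co-activator and is not a secreted carrier.

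RNA was sequenced in 2 experiments that raise or lower Klf5, a transcription factor of the Krüppel-like family. In the first, embryonic stem cells (ESCs, pluripotent cells taken from the blastocyst) of C57BL/6J origin overexpressed Klf5 (2 libraries) or green fluorescent protein, GFP (2 libraries), and all were grown with LIF on irradiated mouse embryonic fibroblast feeders. In the second, single E4.5 embryos (late blastocysts) had received an siRNA against Klf5 (6 embryos) or a scramble siRNA (10 embryos), 1 library per embryo. All embryos were kept in KSOM with albumin, and their mice are labelled C57BL/5J. Whether the ESC replicates came from separate cultures is not stated, so ESC p-values measure only the spread between these libraries, which may be technical. ESC libraries held polyadenylated RNA of whole cultures, feeders included as far as they were carried over.

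Primitive endoderm, the inner layer of the late blastocyst, gives rise to visceral and parietal endoderm. Visceral endoderm takes up maternal protein and lipid by endocytosis. Cubilin (Cubn) is a large receptor with no membrane span of its own, amnionless (Amn) anchors it and carries it to the cell surface, and megalin (Lrp2), a giant receptor of the LDL receptor family, internalises its own ligands and those of cubilin. Dab2 is the cytoplasmic adaptor that couples such receptors to clathrin. Visceral endoderm also secretes carriers, such as transthyretin (Ttr), which binds thyroid hormone and retinol-binding protein, and apolipoprotein E (Apoe), which binds lipid. Follistatin (Fst) binds and blocks activin, and serglycin (Srgn) is the core protein of a proteoglycan of secretory granules, best known from blood cells.

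In units of 1e6 estimated counts, the libraries held 34.6 and 37.5 in Klf5 ESCs and 26.8 and 36.9 in GFP ESCs, 14.9 to 23.4 in Klf5 siRNA embryos and 14.7 to 24.9 in scramble embryos. Levels are given as CPM, the counts per 1e6 counts of the genes tested in a library, after TMM scaling between libraries. A gene read 0 times may still have stood at up to 3 counts (counting error only). Per 1e6 of all counts and without TMM scaling, that is 0.0800 to 0.112 in an ESC library and 0.120 to 0.204 in an embryo. Klf5 itself stood at 942 and 882 CPM in Klf5 ESCs, against 80.5 and 70.8 CPM in GFP ESCs (a log2 fold change of 3.59 with an SE of 0.14, adjusted p = 0.000323 in the quasi-likelihood test of edgeR). In Klf5 siRNA embryos 1 to 6 it stood at 543, 111, 195, 80.8, 117 and 292 CPM, against 382 to 592 CPM in scramble embryos (a log2 fold change of −1.07 with an SE of 0.33, edgeR adjusted p = 0.0273). The embryo labelled Klf5 siRNA 1 was therefore at the control level of the target and goes against its label. It was kept, and the embryo values of the 9 genes tested and the list counts with calls are also given without it. Mitochondrial transcripts made up 2.45 to 10.3% of counts in Klf5 siRNA embryos and 4.34 to 18.5% in scramble embryos, and ribosomal protein transcripts 7.93 to 14.2% and 3.96 to 9.38%. The library numbers in the labels of Klf5 siRNA embryos all lie above those of scramble embryos, so an effect of the siRNA cannot be told apart from one of that order. In bulk libraries, fewer cells of a type and less RNA per cell cannot be told apart either.

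The uptake genes were higher in Klf5-overexpressing ESCs. Cubn and Dab2 rose 7.70-fold and 4.95-fold and passed the threshold, while Amn and Lrp2 were higher in both Klf5 libraries without passing it. Of the 9 genes, 2 were called higher and 0 lower, in a comparison in which 1.67% of 15968 genes tested were called higher and 1.11% lower (2.78% in all). The groups did not overlap, with Klf5 higher, for 5 of the 9 (Cubn, Amn, Lrp2, Dab2 and Srgn), a pattern that 28.9% of all genes tested shared (27.4% did not overlap with Klf5 lower, and 56.4% in either direction). All 9 passed the filter on low counts. Their median log2 fold change was 1.06, beside −0.00 over all genes tested. Since the 9 were chosen with earlier results known, these figures are no test of enrichment.

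Cubn (ENSMUSG00000026726, mm10 chromosome 2, 13276338 to 13491813, minus strand) held 36.0 and 79.5 CPM in Klf5 libraries 1 and 2, against 7.04 and 7.91 CPM in GFP libraries 1 and 2. The Klf5 libraries lay apart from each other by 2.21 times, and both lay above the GFP libraries, which differed by 1.12 times. The group means were 57.8 ± 30.8 CPM in Klf5 cells and 7.48 ± 0.617 CPM in GFP cells (SD, n = 2 each), a log2 fold change of 2.95 ± 0.43 SE (edgeR adjusted p = 0.0486). Dab2 (ENSMUSG00000022150, chromosome 15, 6299788 to 6440712, plus strand) held 26.5 and 51.0 CPM in Klf5 libraries, against 6.92 and 8.67 CPM in GFP libraries. Its log2 fold change was 2.31 ± 0.35 SE (edgeR adjusted p = 0.0415). The Cubn log2 fold change was 2.27 without Klf5 2 (edgeR adjusted p = 0.00143) and 3.41 without Klf5 1, and that of Dab2 1.76 and 2.71. Both calls stood close to the threshold. They were lost without GFP 1 (edgeR adjusted p = 0.388 for Cubn and 0.304 for Dab2) and without GFP 2 (0.255 and 0.152), with limma voom (0.0828 and 0.0685) and with an offset for transcript length (edgeR adjusted p = 0.0725 and 0.0544), and that of Cubn also without the filter on low counts (0.0914).

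Amn (ENSMUSG00000021278, chromosome 12, 111271095 to 111276426, plus strand) held 41.0 and 128 CPM in Klf5 libraries, against 19.1 and 20.1 CPM in GFP libraries. The GFP libraries were close together, and the Klf5 libraries differed by 3.13 times. The log2 fold change was 2.11 ± 0.64 SE and did not pass (edgeR adjusted p = 0.182), although it did in DESeq2 (adjusted p = 0.0452), and it moved to 1.07 without Klf5 2 and 2.71 without Klf5 1, each past the threshold in edgeR (adjusted p = 0.0125 and 5.8e-05). Lrp2 (ENSMUSG00000027070, chromosome 2, 69424340 to 69586065, minus strand) held 30.8 and 66.6 CPM in Klf5 libraries, against 27.8 and 21.5 CPM in GFP libraries. Klf5 1 lay only just above GFP 1. The log2 fold change was 0.99 ± 0.40 SE (edgeR adjusted p = 0.239, DESeq2 adjusted p = 0.0248), and 0.33 without Klf5 2 (edgeR adjusted p = 0.326). Thus Klf5 2 held the higher value for each of the 4 uptake genes, as it did for the other 5 genes. The summed level of 8 primitive endoderm markers (Gata6, Gata4 and Sox17 among them), 0 of them undetected, was likewise 83.3 to 202 CPM in Klf5 cells and 33.2 to 40.3 CPM in GFP cells, with its highest value in Klf5 2. Of these markers 2 rose and 0 fell, Sox7 by 10.3-fold (edgeR adjusted p = 0.0285) and Hnf4a by 9.19-fold (edgeR adjusted p = 0.0302), both genes of endodermal transcription factors. All 8 were at an unadjusted p below 0.05, beside 23.2% of all genes, and DESeq2 called 6 of 8 higher. In edgeR 1.67% of all genes tested were called higher. Without GFP 1 or without GFP 2, edgeR called 0 of 8. The part of the number of such cells in the uptake genes was not tested.

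**Figure D1:**
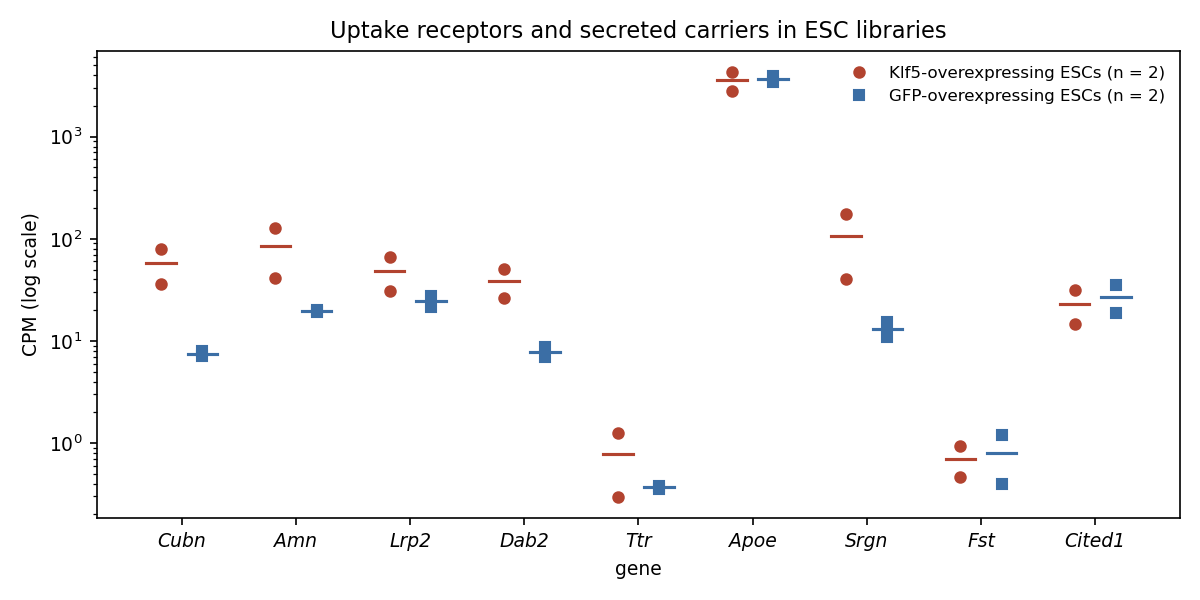
CPM of the 9 genes in each ESC library on a log axis, Klf5-overexpressing cells (circles) left of GFP-overexpressing cells (squares), with the mean of each group as a bar (n = 2 each). Both Klf5 libraries lie above both GFP libraries for Cubn, Amn, Lrp2, Dab2 and Srgn, and the groups overlap for Ttr, Apoe, Fst and Cited1.

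The 4 uptake genes all had positive fold changes in ESCs, so the 250 bases upstream of the RefSeq start (table build GRCm38.p6, the assembly of mm10) were read for each. 3 motifs were searched on both strands. AGATAA is a motif of GATA factors, GGGCGG is the GC box bound by Sp and Krüppel-like factors, and CACCC is a motif of Krüppel-like factors. Other forms of these motifs were not searched, so a window without a match may still hold a site. Matches of different motifs do not overlap in the windows printed. Capitals mark a match, which reads CCGCCC where the GC box, and GGGTG where the second of these Krüppel-like motifs, lies on the opposite strand. The windows are those of Cubn at chr2:13491877-13492126 (minus strand), Amn at chr12:111270846-111271095 (plus strand), Lrp2 at chr2:69586030-69586279 (minus strand) and the distal start of Dab2 at chr15:6299539-6299788 (plus strand), each 5′ to 3′ on the gene's strand.
Cubn: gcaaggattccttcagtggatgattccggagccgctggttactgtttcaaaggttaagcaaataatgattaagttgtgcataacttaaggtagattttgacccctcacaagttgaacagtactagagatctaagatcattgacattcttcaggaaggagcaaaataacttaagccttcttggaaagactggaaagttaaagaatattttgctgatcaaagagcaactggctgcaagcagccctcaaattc
Amn: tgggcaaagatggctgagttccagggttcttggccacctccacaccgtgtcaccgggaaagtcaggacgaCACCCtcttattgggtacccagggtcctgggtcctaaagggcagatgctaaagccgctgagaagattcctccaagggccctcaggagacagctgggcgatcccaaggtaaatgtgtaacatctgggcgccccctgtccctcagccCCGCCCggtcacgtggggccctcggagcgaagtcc
Lrp2: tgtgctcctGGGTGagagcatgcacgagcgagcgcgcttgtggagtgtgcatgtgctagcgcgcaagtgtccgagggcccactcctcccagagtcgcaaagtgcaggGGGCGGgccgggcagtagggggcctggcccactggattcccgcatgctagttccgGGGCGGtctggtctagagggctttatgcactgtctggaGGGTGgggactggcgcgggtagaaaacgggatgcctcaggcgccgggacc
Dab2: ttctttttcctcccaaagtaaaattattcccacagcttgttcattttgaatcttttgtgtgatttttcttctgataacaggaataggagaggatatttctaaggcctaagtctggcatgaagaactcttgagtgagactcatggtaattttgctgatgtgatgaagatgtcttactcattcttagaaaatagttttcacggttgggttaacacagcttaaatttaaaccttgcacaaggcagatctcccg
The Lrp2 window held 2 GC boxes and 2 CACCC motifs, and the Amn window 1 of each. The Cubn window and the distal Dab2 window held 0 of the 3 motifs, and the window of the other Dab2 start (chr15:6386498-6386747, plus strand) held 1 CACCC motif. Over 13 windows of the 7 genes with windows used here, AGATAA was found in 0, GGGCGG in 3 and CACCC in 10. Among 32851 windows of the same length in the RefSeq table the shares were 9.99%, 32.7% and 52.0%.

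Of the 4 secreted proteins and Cited1, 0 passed in edgeR in ESCs (Srgn at an unadjusted p below 0.05). Srgn (ENSMUSG00000020077, chromosome 10, 62493833 to 62527451, minus strand) held 40.6 and 175 CPM in Klf5 libraries, against 15.5 and 11.0 CPM in GFP libraries. Its log2 fold change of 3.03 ± 0.93 SE, the largest of the 9, did not pass in edgeR (adjusted p = 0.208) with Klf5 libraries that differed by 4.30 times, whereas DESeq2 gave an adjusted p of 0.0167. Without Klf5 2 it was 1.63 and without Klf5 1 it was 3.74, and both passed in edgeR (adjusted p = 0.0140 and 0.000734). Blood cells also express Srgn, and the summed level of 8 macrophage and blood cell markers was 28.0 to 36.0 CPM in Klf5 cells and 38.4 to 58.5 CPM in GFP cells, with Tyrobp at 0 in both Klf5 libraries and Ptprc at or below 0.109 CPM in Klf5 cells and 0.190 CPM in GFP cells. Of 6 macrophage and blood cell markers tested, 0 passed in edgeR, also unadjusted (1 lower in DESeq2, Csf1r), with a median of −0.11 and Cd68 at −0.53 (edgeR adjusted p = 0.231). The part of blood cells in the Srgn level was not tested.

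Apoe (ENSMUSG00000002985, chromosome 7, 19696109 to 19699188, minus strand) was by far the most abundant of the 9 in ESCs, with 2806 and 4293 CPM in Klf5 libraries, against 3939 and 3432 CPM in GFP libraries. The Klf5 libraries enclosed the GFP libraries. Its log2 fold change was −0.05 ± 0.22 SE (edgeR adjusted p = 0.906). Ttr (ENSMUSG00000061808) was near the detection limit, with 0.299 and 1.25 CPM in Klf5 libraries (11 and 47 counts), against 0.358 and 0.379 CPM in GFP libraries (9 and 14 counts; log2 fold change 1.06 ± 0.70 SE, edgeR adjusted p = 0.396). Fst (ENSMUSG00000021765, chromosome 13, 114452290 to 114458951, minus strand) held 0.462 and 0.932 CPM in Klf5 libraries, against 0.398 and 1.19 CPM in GFP libraries (−0.22 ± 0.60 SE, edgeR adjusted p = 0.852). Cited1 (ENSMUSG00000051159, chromosome X, 102247381 to 102252181, minus strand) held 14.5 and 31.8 CPM in Klf5 libraries, against 35.0 and 18.9 CPM in GFP libraries. These groups overlapped too, and the difference was −0.22 ± 0.50 SE on the log2 scale (edgeR adjusted p = 0.833). The signs of Apoe, Ttr, Fst and Cited1 in ESCs each changed when some library was left out, so no direction is read from them.

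Feeder fibroblast markers, which the culture also holds, summed to 2075 to 2197 CPM in Klf5 cells and 1874 to 1931 CPM in GFP cells, and of 9 tested 1 rose (Col1a2, a collagen gene, 1.72-fold, edgeR adjusted p = 0.0347). At an unadjusted p below 0.05 there were 5 of 9, DESeq2 called 4 of 10 higher, and Col1a2 did not pass without GFP 1 or without GFP 2. Their part in these results was not tested. Over all genes tested in ESCs, edgeR called 1.67% higher and 1.11% lower, and 23.2% were at an unadjusted p below 0.05. Of 8 trophectoderm markers 0 passed in edgeR, DESeq2 and limma voom (2 at an unadjusted p below 0.05 in edgeR), with the transcription factor gene Gata3 at −1.15 on the log2 scale (edgeR adjusted p = 0.102) and a summed level of 291 to 641 CPM in Klf5 cells and 815 to 1736 CPM in GFP cells. The 8 epiblast and pluripotency markers were abundant in every ESC library, at 5312 to 5671 CPM in Klf5 cells and 4488 to 4634 CPM in GFP cells. None of them passed in edgeR (4 at an unadjusted p below 0.05, and 4 higher in DESeq2), with the pluripotency factor gene Sox2 nearest at 0.57 (edgeR adjusted p = 0.0632). Of 6 Cited family members and partners tested, 0 passed in edgeR or DESeq2 (0 also at an unadjusted p below 0.05 in edgeR), with a median of 0.05 and Cited2 at 0.49 (edgeR adjusted p = 0.423).

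In E4.5 embryos the 9 genes were read in a different order of abundance, and 6 of the 9 passed the filter on low counts. Cited1, a transcriptional co-activator that binds CBP and p300 and whose loss affects the mouse placenta, rose 14.7-fold after Klf5 siRNA and was the single gene of the 9 called, in a comparison in which 12.0% of 12385 genes tested were called higher and 7.74% lower (19.8% in all). Cubn, Lrp2, Dab2, Apoe and Srgn did not pass, which does not show that they were unchanged. The median log2 fold change of the 6 tested was −0.01, as it was over all genes. Amn, Ttr and Fst were too low to test.

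Cited1 held 88.6, 282, 219, 28.7, 815 and 129 CPM in Klf5 siRNA embryos 1 to 6. In scramble embryos it ranged from 0.363 to 62.5 CPM with a median of 10.8 CPM. 5 of the 6 Klf5 siRNA embryos lay above all 10 scramble embryos, and Klf5 siRNA 4 lay below scramble embryos 9 and 10, at 29.9 and 62.5 CPM. The means were 260 ± 286 CPM after Klf5 siRNA (SD, n = 6) and 17.7 ± 18 CPM after scramble siRNA (SD, n = 10), with a log2 fold change of 3.88 ± 0.72 SE (edgeR adjusted p = 0.00112). The value was 4.04 without Klf5 siRNA 1 (edgeR adjusted p = 0.00120) and 3.06 without Klf5 siRNA 5, the embryo with the highest level (0.00435), and the call was kept under all 30 alternatives run, with log2 fold changes of 3.06 to 4.85. Klf5 siRNA 4, with the lowest Klf5 (80.8 CPM), had the lowest Cited1 of its group. Klf5 siRNA 1, with Klf5 at the control level, had Cited1 at 88.6 CPM. Klf5 siRNA 2, 5, 3 and 6, with Klf5 at 111, 117, 195 and 292 CPM, had Cited1 at 282, 815, 219 and 129 CPM. A relation of Cited1 to the Klf5 level was not tested.

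Cited1 lies on the X chromosome, so the embryos were also read by a Y-linked transcript. In embryos with Eif2s3y above 10 CPM, Cited1 ranged from 28.7 to 219 CPM after Klf5 siRNA (n = 3) and from 0.363 to 21.6 CPM after scramble siRNA (n = 6). With Eif2s3y at or below 10 CPM it ranged from 88.6 to 815 CPM (n = 3) and from 9.49 to 62.5 CPM (n = 4). With the class as a covariate the log2 fold change was 3.67 (edgeR adjusted p = 0.000704). Short transcripts had higher fold changes than long ones in these libraries. The median log2 fold change was 0.89 in the shortest of 10 classes of gene length and −0.35 in the longest, and 0.56 among genes of 1.152 to 1.645 kb, the class that holds Cited1 with 1.26 kb of exons. With an offset that removes each library's length trend Cited1 stayed at 3.41 (edgeR adjusted p = 0.00229).

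The window upstream of the RefSeq start of Cited1 that lies farthest upstream (GRCm38.p6, chrX:102252182-102252431, minus strand) is printed since Cited1 alone passed in embryos, with the same motifs in capitals.
Cited1: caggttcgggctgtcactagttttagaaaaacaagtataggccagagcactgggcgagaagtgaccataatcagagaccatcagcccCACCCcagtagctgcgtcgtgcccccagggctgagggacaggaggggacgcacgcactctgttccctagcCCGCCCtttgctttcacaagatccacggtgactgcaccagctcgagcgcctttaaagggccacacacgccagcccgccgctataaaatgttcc
It held 1 GC box and 1 CACCC motif.

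**Figure D2:**
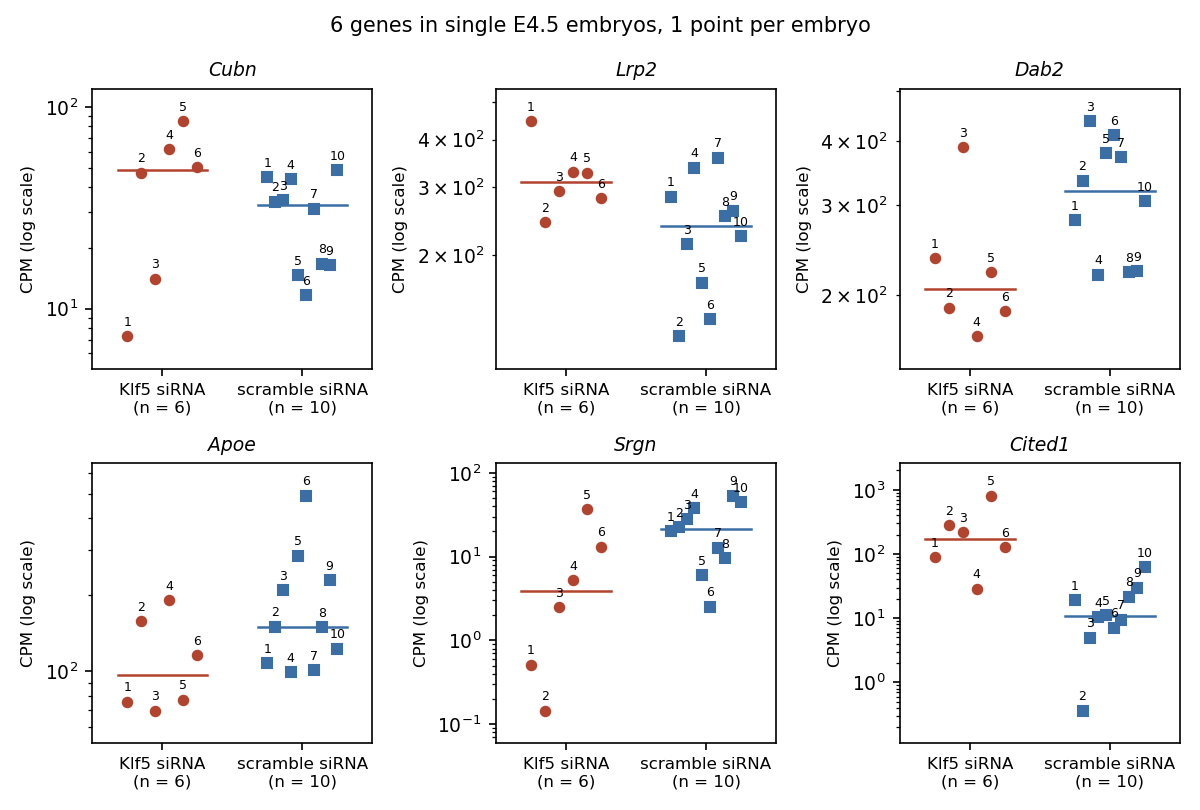
CPM of Cubn, Lrp2, Dab2, Apoe, Srgn and Cited1 in single E4.5 embryos on log axes, Klf5 siRNA embryos (circles, n = 6) left of scramble siRNA embryos (squares, n = 10), with embryo numbers beside the points and bars at the medians. Cited1 of 5 Klf5 siRNA embryos lies above all scramble embryos, and the other 5 genes overlap widely.

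Genes of proteins that work with Cited1 were described alongside it. Over all genes tested in embryos, 12.0% were called higher and 7.74% lower. Of 7 such genes tested (Cited family members and partners), 0 rose and 2 fell, Smad4, the shared effector of TGF-β and BMP signals, by 2.19-fold (edgeR adjusted p = 0.00368) and Tfap2a, a transcription factor gene of trophectoderm and other lineages, by 7.07-fold (edgeR adjusted p = 0.00388). Tfap2a ranged from 0.218 to 16.8 CPM after Klf5 siRNA and from 7.57 to 74.5 CPM after scramble siRNA. The median log2 fold change of the 7 was −0.50, or −0.66 with 3 falling when Klf5 siRNA 1 was left out. With the length offset the median was −0.01 and 2 still fell. Trophectoderm markers were lower in the same embryos. 6 of 8 fell, among them Elf5 (14.9-fold, edgeR adjusted p = 0.000522), Eomes (3.09-fold, 0.0146), Gata3 (1.96-fold, 0.0148) and Krt8 (3.52-fold, 0.0184), and 7 of 8 fell without Klf5 siRNA 1. Their summed level was 186 to 2372 CPM after Klf5 siRNA and 2129 to 8357 CPM after scramble siRNA. The part of the trophectoderm level in the Cited1 difference was not tested.

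Cubn held 7.30, 47.1, 14.1, 61.9, 84.9 and 50.3 CPM in Klf5 siRNA embryos 1 to 6. In scramble embryos it ranged from 11.7 to 48.7 CPM with a median of 32.7 CPM. 3 Klf5 siRNA embryos lay above all scramble embryos and 1, Klf5 siRNA 1, below them all, so that the log2 fold change of 0.58 ± 0.43 SE did not pass (edgeR adjusted p = 0.372). It was 0.77 without Klf5 siRNA 1 (edgeR adjusted p = 0.184). Lrp2 ranged from 243 to 446 CPM after Klf5 siRNA with a median of 310 CPM, and from 123 to 358 CPM after scramble siRNA with a median of 238 CPM. All 6 Klf5 siRNA embryos lay above the scramble mean of 236 CPM, but 1 of them lay above every scramble embryo. The log2 fold change was 0.44 ± 0.24 SE (edgeR adjusted p = 0.205), and 0.31 without Klf5 siRNA 1 (0.425).

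Cubn and Lrp2 are among the longest transcripts, with 11.3 and 16.6 kb of exons. Against the length trend they therefore lay higher than their unadjusted values. With the length offset Lrp2 was at 0.92 and passed (edgeR adjusted p = 0.00610), and Cubn was at 1.11 and did not (0.0653). Without Klf5 siRNA 1 as well, a setting chosen after the data were seen, both passed, Cubn at 1.35 (edgeR adjusted p = 0.0105) and Lrp2 at 0.87 (0.0132). Both genes had a positive fold change under all 30 alternatives run in embryos, and neither passed under any alternative without the length offset.

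Dab2 went the other way from Lrp2 in its values. It ranged from 166 to 389 CPM after Klf5 siRNA with a median of 205 CPM, and from 219 to 437 CPM after scramble siRNA with a median of 320 CPM. 3 Klf5 siRNA embryos lay below all scramble embryos, while Klf5 siRNA 3, at 389 CPM, was near the top of the scramble range. The log2 fold change was −0.46 ± 0.23 SE (edgeR adjusted p = 0.172). It was −0.47 without Klf5 siRNA 1 (0.228), −0.70 and past the threshold without Klf5 siRNA 3 (edgeR adjusted p = 0.0358), and −0.15 with the length offset (0.740). Amn, the anchor of cubilin, was barely detected in embryos, with 3, 2, 12, 0, 4 and 2 counts in Klf5 siRNA embryos 1 to 6. In scramble embryos it had 0 counts in 6 of 10 and 4, 14, 11 and 2 counts in scramble embryos 4, 5, 6 and 10, and no embryo exceeded 0.519 CPM.

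**Figure D3:**
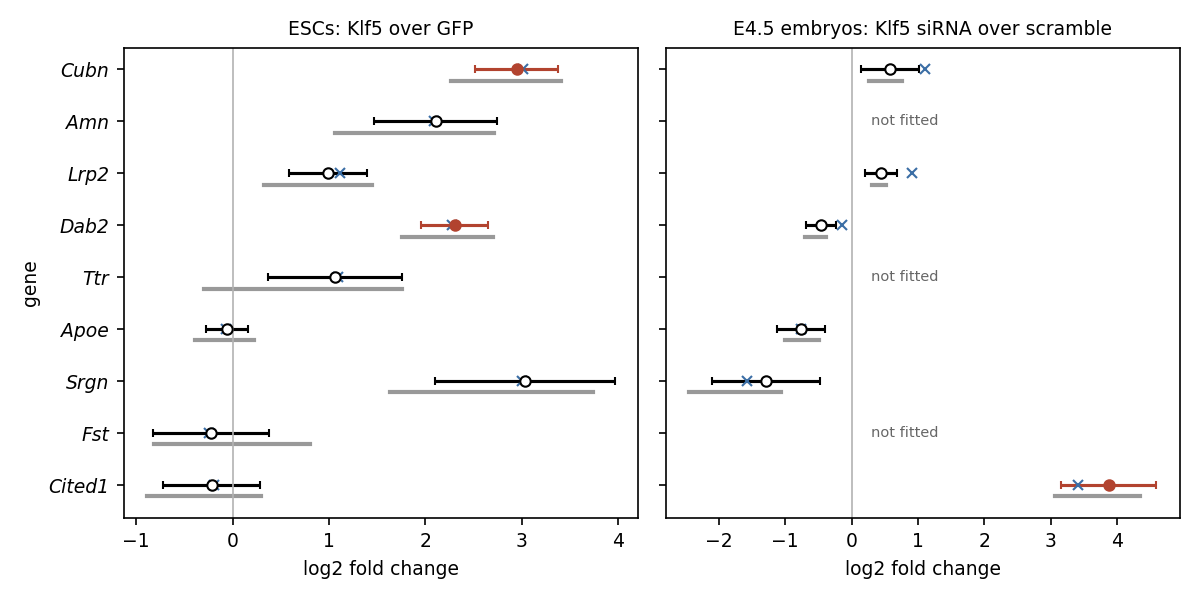
Log2 fold changes of the 9 genes, Klf5 over GFP in ESCs (left) and Klf5 siRNA over scramble in embryos (right), with 1 SE as error bars (edgeR). Filled red points passed the adjusted threshold of 0.05, grey bars span the values with each library left out in turn, and crosses give the value with a length offset. Cubn and Dab2 passed in ESCs and Cited1 in embryos, and Amn, Ttr and Fst could not be fitted in embryos.

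Among the secreted proteins, Apoe ranged from 69.9 to 190 CPM after Klf5 siRNA with a median of 96.2 CPM, and from 98.9 to 491 CPM after scramble siRNA with a median of 149 CPM. All 6 Klf5 siRNA embryos lay below the scramble mean of 194 CPM, which scramble embryos 5 and 6, at 285 and 491 CPM, raised. The log2 fold change was −0.76 ± 0.36 SE and did not pass (edgeR adjusted p = 0.144). It was −0.69 without Klf5 siRNA 1 (0.222), −0.41 without scramble embryos 5 and 6 (0.296), and −1.26 and past the threshold with the mitochondrial percentage as a covariate (edgeR adjusted p = 0.0178).

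Srgn held 0.515, 0.146, 2.51, 5.20, 36.5 and 13.2 CPM in Klf5 siRNA embryos 1 to 6, against 2.52 to 53.6 CPM in scramble embryos with a median of 21.3 CPM. 3 Klf5 siRNA embryos lay below all scramble embryos, and Klf5 siRNA 5 lay within the upper part of the scramble range. The log2 fold change of −1.29 ± 0.81 SE did not pass (edgeR adjusted p = 0.279). It was −1.07 without Klf5 siRNA 1 (0.381) and −2.45 without Klf5 siRNA 5 (0.0507). Ttr was read in 2 embryos, Klf5 siRNA 5 and 6, with 11 and 22 counts (0.740 and 1.37 CPM), and had 0 counts in the other 14. Without the low-count filter it was called (edgeR adjusted p = 0.0266), a call that rests on these 2 embryos. Fst had 0 counts in all 16 embryos, which allows up to 0.120 to 0.204 per 1e6 of all counts in an embryo.

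**Figure D4:**
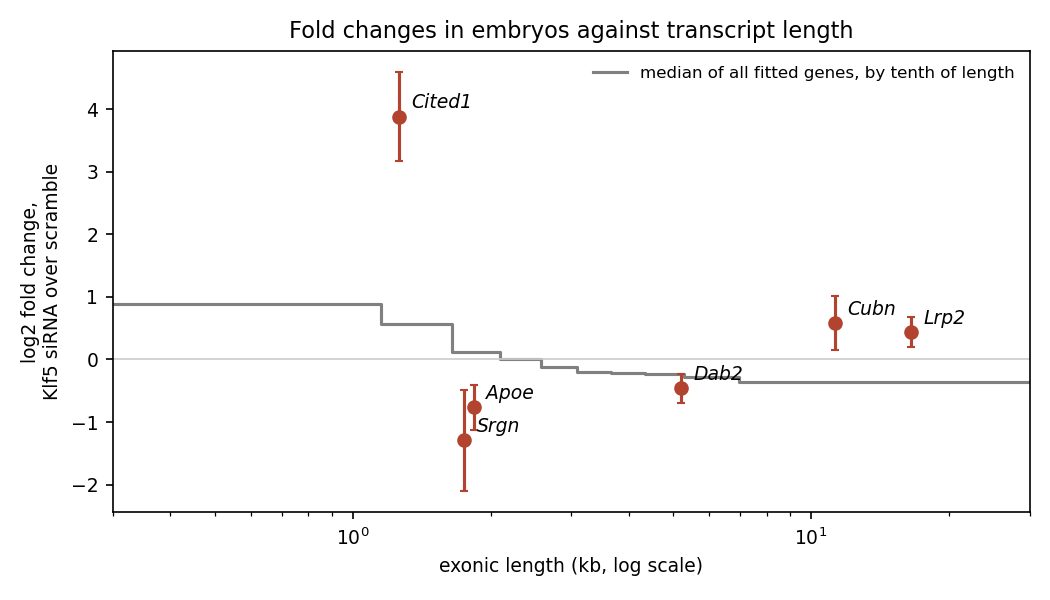
Log2 fold changes (Klf5 siRNA over scramble, with 1 SE) of the 6 genes tested in embryos against exonic length on a log axis, with the median of all tested genes in each of 10 length classes as a grey line. The line falls to −0.35 among the longest genes and is 0.89 among the shortest. Cited1 lies far above it, Cubn and Lrp2 lie above it, Dab2 close to it, and Apoe and Srgn below it.

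The machinery around the uptake receptors was read from lists of genes chosen by function. Over all genes tested in ESCs, 23.2% were at an unadjusted p below 0.05 in edgeR. In ESCs, 0 of 13 other uptake receptors and chaperones passed in edgeR (4 at an unadjusted p below 0.05, and 1 lower in DESeq2), with a median of 0.02 and Tfrc, the transferrin receptor gene, at a log2 fold change of −0.67 ± 0.13 SE (edgeR adjusted p = 0.0504). Among 24 clathrin, adaptor and early endosome genes 0 passed in edgeR (4 unadjusted, and 2 higher and 1 lower in DESeq2), with a median of −0.01 and Ap2b1, a subunit gene of the AP-2 adaptor, at −0.50 (0.0579). Likewise 0 of 13 lysosomal genes passed in edgeR (1 unadjusted, and 1 lower in DESeq2), with a median of −0.14 and Lamp2, a lysosomal membrane protein gene, at −0.46 (0.0936). The higher Cubn and Dab2 in Klf5 ESCs therefore stood beside machinery lists with medians of −0.14 to 0.02, beside −0.00 for all genes.

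In embryos 12.0% of all genes tested were called higher and 7.74% lower. The lists are described by counts of a few genes, which are no test against that background. Of 11 receptors and chaperones tested, 2 rose and 1 fell. Tfrc rose 4.21-fold (edgeR adjusted p = 0.0142), Cd320, which encodes the receptor for transcobalamin, rose 1.88-fold (0.0496), and Vldlr, a receptor gene of the LDL receptor family, fell 4.53-fold (0.0481). Of 23 clathrin, adaptor and early endosome genes, 3 rose and 3 fell. Ap2s1, the small AP-2 subunit, rose 3.01-fold (edgeR adjusted p = 0.000157) with 294 to 718 CPM after Klf5 siRNA and 119 to 285 CPM after scramble siRNA, so that the groups did not overlap. Among all genes tested 2.91% lay apart with Klf5 siRNA higher, 1.91% with it lower and 4.81% in either direction. Cltb, a clathrin light chain, rose 2.29-fold (0.0346), while Myo6, the myosin that moves endocytic vesicles, fell 2.74-fold (0.0119). The list median was −0.63, or −0.29 with the length offset, with 3 rising and 1 falling. Without Klf5 siRNA 1, 3 rose and 6 fell in the clathrin list, and 2 rose and 0 fell among receptors, where Vldlr no longer passed. With any 1 embryo left out, 1 to 2 receptors rose and 0 to 1 fell (Tfrc did not pass without Klf5 siRNA 2), and 1 to 3 clathrin list genes rose and 2 to 6 fell, Ap2s1 and Myo6 among them each time.

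Of 13 lysosomal genes, 3 rose and 0 fell in embryos (median −0.03), beside 12.0% of all genes called higher. Cst3, encoding the protease inhibitor cystatin C, rose 2.55-fold (edgeR adjusted p = 0.00122) with 420 to 1106 CPM after Klf5 siRNA and 116 to 321 CPM after scramble siRNA, which did not overlap. Lamp2 rose 2.06-fold (0.0151) and Ctsl, encoding cathepsin L, 2.87-fold (0.0176). With the length offset 3 rose and 0 fell, with Npc2 in place of Cst3, and 3 rose and 1 fell without Klf5 siRNA 1.

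Other secreted endoderm proteins gave no call in edgeR in either experiment. Of 25 listed, 17 were tested in ESCs with 0 called (3 at an unadjusted p below 0.05, and 1 higher and 1 lower in DESeq2), a median of 0.31 and Trf, the transferrin gene, at 0.87 ± 0.19 SE (edgeR adjusted p = 0.0616). In embryos 8 were tested with 0 called (2 unadjusted, where 33.2% of all genes stood, and 1 higher and 1 lower in DESeq2), a median of 0.21, Plat, encoding tissue plasminogen activator, at −1.43 ± 0.52 SE (0.0606), and without Klf5 siRNA 1, 2 of 10 rose (Apoa2 and Dkk1, named after their values were seen). Around follistatin, of 13 genes of the activin and BMP pathway tested in ESCs 2 rose and 0 fell, Bmp4, a ligand gene, by 2.53-fold (edgeR adjusted p = 0.0325) and Acvr1b, an activin receptor gene, by 1.53-fold (0.0479). Bmp4 was at 23.4 to 31.7 CPM in Klf5 cells and 9.46 to 12.4 CPM in GFP cells. Among all genes tested in ESCs, edgeR called 1.67% higher and 1.11% lower, and 23.2% stood at an unadjusted p below 0.05. Without GFP 1 or without GFP 2, edgeR called 0 of the 13. Of 9 tested in embryos 0 rose and 2 fell, beside 12.0% of all genes called higher and 7.74% lower. Bmp4 had 0 counts in all 6 Klf5 siRNA embryos and 0 to 7.13 CPM in scramble embryos (edgeR adjusted p = 0.00233), and Acvr2a, another activin receptor gene, fell 3.47-fold (0.0457). Without Klf5 siRNA 1, Bmp4 and Acvr1b fell and Acvr2a did not pass.

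Primitive endoderm markers in embryos gave 0 rising and 2 falling among 8, Sox17 by 11.3-fold (edgeR adjusted p = 0.00138) and Pdgfra by 3.68-fold (0.00432), and 2 also fell without Klf5 siRNA 1. The shares over all genes tested in embryos were 12.0% called higher and 7.74% lower. The summed level of the primitive endoderm markers was 12.8 to 96.6 CPM after Klf5 siRNA and 61.4 to 229 CPM after scramble siRNA. Cubn and Lrp2, which visceral endoderm also expresses, averaged 44.3 and 320 CPM in the same Klf5 siRNA embryos and 29.7 and 236 CPM in scramble embryos. Of 8 epiblast markers 1 rose and 1 fell (Klf2, 2.30-fold, edgeR adjusted p = 0.0215; Fgf4, 4.33-fold, 0.0491), and without Klf5 siRNA 1 Klf2 rose and Esrrb, not Fgf4, fell. With the length offset 0 epiblast markers passed in edgeR (4 at an unadjusted p below 0.05). Fibroblast markers were nearly absent, at 0.993 to 22.9 CPM in sum after Klf5 siRNA and 0.375 to 3.40 CPM after scramble siRNA, with 1 tested gene, Thy1, a surface glycoprotein gene, at 0.432 to 21.9 CPM and 0 to 1.48 CPM. Thy1 rose 19.1-fold (edgeR adjusted p = 0.00621), and rose without Klf5 siRNA 1 too, and its part in the other results was not tested. Macrophage and blood cell markers summed to 2.80 to 31.5 CPM after Klf5 siRNA and 0.750 to 17.1 CPM after scramble siRNA, with Ptprc at or below 0.172 CPM and 0.514 CPM. The 1 of them tested, Cd68, was at 1.39 on the log2 scale and did not pass (edgeR adjusted p = 0.114).

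To compare the genes with each other, CPM were divided by the exonic length in kb of the GENCODE annotation. In Klf5 ESCs the order of mean levels per kb was Apoe at 1931 ± 572, Srgn at 61.4 ± 54.0, Amn at 49.7 ± 36.2, Cited1 at 18.3 ± 9.68, Dab2 at 7.42 ± 3.32, Cubn at 5.13 ± 2.73, Lrp2 at 2.94 ± 1.53, Ttr at 0.654 ± 0.568 and Fst at 0.246 ± 0.117 CPM per kb (SD, n = 2). Apoe and Srgn, and Lrp2 and Ttr, differed by more than the sum of their SDs, and the other neighbours in that order did not. In GFP ESCs the order was Apoe at 2005 ± 195, Cited1 at 21.4 ± 9.04, Amn at 11.5 ± 0.422, Srgn at 7.54 ± 1.81, Dab2 at 1.49 ± 0.237, Lrp2 at 1.49 ± 0.268, Cubn at 0.664 ± 0.0548, Ttr at 0.311 ± 0.0128 and Fst at 0.281 ± 0.198 CPM per kb (SD, n = 2). Dab2 and Lrp2, and Ttr and Fst, lay within the sum of their SDs there.

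In embryos Cited1 led after Klf5 siRNA at 206 ± 227 CPM per kb, ahead of Apoe at 62.1 ± 27.1, Dab2 at 44.4 ± 15.6, Lrp2 at 19.3 ± 4.21, Srgn at 5.52 ± 7.99 and Cubn at 3.93 ± 2.60 CPM per kb (SD, n = 6), with Amn, Ttr and Fst near or at 0. Dab2 and Lrp2, and Lrp2 and Srgn, differed by more than the sum of their SDs, and the other neighbours did not. After scramble siRNA the order was Apoe at 105 ± 66.0, Dab2 at 61.0 ± 15.6, Lrp2 at 14.2 ± 4.78, Cited1 at 14.0 ± 14.3, Srgn at 13.5 ± 9.75, Cubn at 2.63 ± 1.23 and Amn at 0.0651 ± 0.0975 CPM per kb (SD, n = 10). Dab2 and Lrp2, and Cubn and Amn, differed by more than the sum of their SDs, and the other neighbours did not. ESC and embryo libraries were made with different kits and scaled apart, so their levels are given side by side and were not compared by a test.

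Embryos of 1 group varied to different degrees in these genes. Among scramble embryos the coefficient of variation was 25.5% for Dab2, 33.6% for Lrp2, 46.7% for Cubn, 62.6% for Apoe, 72.0% for Srgn and 102% for Cited1, beside a median of 49.9% over all genes tested. Dab2 and Lrp2 were therefore steadier from embryo to embryo than the median gene, and Cited1 and Srgn less so. Mean levels were 318 and 236 CPM for Dab2 and Lrp2, and 17.7 and 23.7 CPM for Cited1 and Srgn. No comparison with genes of like level was made, so the part of abundance in this spread was not tested. After Klf5 siRNA Lrp2 was steadiest at 21.8%, ahead of Dab2 at 35.1%, and Srgn at 145% and Cited1 at 110% varied most, beside a median of 60.2%.

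Across the 10 scramble embryos, 15 pairs among the 6 genes tested were compared on log2 CPM. Cubn and Apoe ran in opposite directions (Pearson r = −0.82, two-sided permutation p = 0.00294, adjusted over the 15 pairs 0.0441; Spearman rho = −0.73, permutation p = 0.0194, adjusted 0.145). Without the embryos farthest from the median of Cubn, which are scramble 5 and 6, r was −0.61, and over the 6 Klf5 siRNA embryos it was 0.55, so the relation rests in part on those 2 embryos and was not seen after Klf5 siRNA. No other pair passed after adjustment. Cubn and Lrp2, partners in uptake, had r = 0.40 (permutation p = 0.246, adjusted 0.345; rho = 0.35, permutation p = 0.330, adjusted 0.469), and −0.01 without the same 2 embryos. Among the genes whose levels were most like the mean standardised level of Cubn, Lrp2 and Dab2 over these 10 embryos, of 12286 ranked, were Plac8 and Ogt at r = 0.94, Wdr72 at 0.91 and Zfp260 at 0.90. Over the 6 Klf5 siRNA embryos Plac8, Ogt, Wdr72 and Zfp260 had r of −0.09, −0.03, −0.29 and −0.40, and all points share library depth and RNA quality.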

How the data were processed

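The authors deposited 1 table of estimated counts per Ensembl gene for each experiment, not scaled for library size. The submitters' processing notes name kallisto 0.46 and mm10. Per the labels' protocols, ESC libraries used TruSeq v2 reagents and embryo cDNA the SMARTseq-V4 kit. The step from transcripts to genes is not stated. Counts were rounded, matched to symbols of GENCODE M21 (29831 of 30265 genes) and tested separately in ESCs (2 against 2) and embryos (6 against 10), with samples grouped by title.

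Genes kept by filterByExpr (lowest count 10) were tested in edgeR 4.0.16 (R 4.3.3) by robust quasi-likelihood F tests after TMM scaling, with Benjamini-Hochberg adjustment over all genes tested and a threshold of 0.05. Log2 CPM used a prior count of 2. Residual degrees of freedom were 2 in ESCs and 14 in embryos, and the biological coefficient of variation was 0.163 and 0.739. Fits were tested on simulated data with the same dispersion for every gene. In simulated ESC libraries 6% of 1.5-fold, 64% of 2-fold and 98% of 4-fold changes were called. In simulated embryo libraries 0% of 1.5-fold, 0% of 2-fold, 30% of 4-fold and 82% of 8-fold changes were called. Real genes differ in dispersion, so these shares do not say how often a change of a given gene is called. In the embryo data Cd320 was called at 1.88-fold and Gata3 at 1.96-fold. Correlations used 100000 permutations. The 9 genes and all lists were chosen with earlier results of these data known. Named genes were Klf5, the 9, up to 4 called genes with the smallest p in each list (where 0 passed, the gene of smallest p), and the 5 genes most like the uptake genes. Some genes that this rule names are not reported here. Other genes are named as members of their lists. Promoter windows came from RefSeq (GRCm38.p6). Protein sequences were not used here.

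Alternatives were RLE and upper quartile scaling, DESeq2 1.42.0, limma 3.58.1 voom, no filter, a filter at 5 CPM, an offset for each library's length trend (lowess span 0.3), each library left out, the replicate block, the mitochondrial percentage as a covariate, and leaving out Klf5 siRNA embryos 2 and 4. Those added after the data were seen were a crossed pairing in ESCs, the length offset without Klf5 siRNA 1, leaving out scramble embryos 5 and 6, and the Eif2s3y class as a covariate.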

Additional observations from a re-analysis of the deposited data

Results flagged for a closer look

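Among 12 groups of embryo values tested with Dixon's ratio (6 genes in each of the 2 groups, on log2 CPM), 1 passed the critical value, and chance passes about 1 in 20. Cited1 in scramble embryo 2 stood at 0.363 CPM, below the other 9 scramble embryos, with a gap of 0.486 of the group's range against a critical value of 0.466. Without that embryo the log2 fold change of Cited1 was 3.73 (edgeR adjusted p = 0.000790).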

How the results depend on the processing

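In ESCs 444 genes and 2 of the 9 were called. Genes and members called were 1435 and 5 with DESeq2, 281 and 0 with limma voom, 870 and 1 without the filter, and 0 of the 9 with the length offset. With a library left out, 1 to 998 genes and 0 to 5 of the 9 were called. The cause was not tested. In embryos 2447 genes and 1 of the 9 were called. Of the 9, 2 were called without the filter (Cited1 and Ttr), with the length offset (Cited1 and Lrp2) and with the mitochondrial covariate (Cited1 and Apoe), 3 with the length offset without Klf5 siRNA 1, and 1 to 2 with an embryo left out. Signs reversed in ESCs among uncalled genes as libraries were left out, over −0.39 to 0.22 for Apoe, −0.89 to 0.29 for Cited1, −0.81 to 0.80 for Fst and −0.30 to 1.75 for Ttr. The fit with the replicate number as a block called 155 genes in ESCs and 902 in embryos, against 1423 in the same 12 embryos without the block, and changed the call of none of the 9. Replicate numbers were not used as a pairing, since deviations of same-numbered libraries correlated at −0.11 in ESCs and at −0.11 to 0.11 in embryos, where 1 of 6 correlated best with its own number. A crossed pairing in ESCs called 1475 genes and 3 of the 9. DESeq2 and limma voom moved the embryo median of all genes to 0.10 and −0.12 on the log2 scale. Depth limits Amn, Ttr and Fst in embryos and Ttr and Fst in ESCs.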

Other observations

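Cubilin and its anchor were read at opposite ratios in the 2 experiments. Per kb of exons, Amn exceeded Cubn in ESCs, at 49.7 and 5.13 CPM per kb with Klf5 and 11.5 and 0.664 with GFP. In embryos Cubn exceeded Amn, at 3.93 and 0.129 CPM per kb after Klf5 siRNA and 2.63 and 0.0651 after scramble siRNA. Stage and library kit cannot be told apart in this difference.

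The balance of the uptake genes was looked at after their values were seen and was not tested. The Lrp2 level per kb divided by that of Dab2 was 0.238 to 0.624 after Klf5 siRNA (median 0.471) and 0.104 to 0.485 after scramble siRNA (median 0.267). The ratio of Cubn to Lrp2 was 0.0241 to 0.382 (median 0.270) and 0.0928 to 0.407 (median 0.160). Both ratios overlapped between the groups, and the length trend of the fold changes was not removed from them.

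Scramble embryos 5 and 6 stood apart from the other scramble embryos in several of these genes. They held the 2 highest Apoe levels (285 and 491 CPM), the 2 lowest Cubn levels (14.6 and 11.7 CPM), the 2 lowest Srgn levels (6.00 and 2.52 CPM) and the most Amn counts (14 and 11). Their totals were the highest of the group (24.9 in units of 1e6 counts, each) and their mitochondrial percentages the lowest (4.34 and 5.48%). The part of these library measures in their levels was not tested.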
